A study of Homo sapiens with 8 samples.

Results

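Antisense genes are transcribed from the strand opposite to another gene and are named after that gene with the suffix AS. The members described here are the 142 antisense genes whose namesake was also a row of the deposited table and whose mean over the 8 libraries was at least 1 normalized CPM (counts of reads per library, made comparable between libraries). They were taken from 402 antisense symbols among 17649 gene symbols. Of the 402, 46 had no namesake in the table and 214 had a namesake but a mean under 1 CPM, 26 of them at 0 in all libraries. The 142 members had 141 namesakes, because PAXIP1-AS1 and PAXIP1-AS2 share PAXIP1.

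RNA-Seq was performed on MDA-MB-231, a widely used line of human breast cancer cells without estrogen receptor. The control group held 4 libraries of cells without added N(ε)-carboxymethyllysine, and the CML group held 4 libraries of cells that received 1 μM of this compound for 48 hours, both groups in low-glucose medium. CML is an advanced glycation end product, a lysine modified by sugars or their metabolites. The paper describes CML as food-derived and as increased in tumors of patients with diabetes. The control cells received PBS. The comparison of the groups addresses how added CML alters gene expression in the cells. The labels number the replicates of each group 1 to 4 and do not say whether they were separate cultures, so p-values measure the spread between these libraries, which may be technical. The values describe this cell line only.

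Many antisense genes start at the promoter of their namesake and run away from it, as divergent pairs. Others run into the 3′ end of the namesake, or lie inside it. A few antisense RNAs stabilize, silence or compete with the namesake's RNA, others act on genes elsewhere, and for most no function is known. OIP5-AS1, also called cyrano, is a conserved cytoplasmic RNA that binds a microRNA, and AFAP1-AS1 and ZEB1-AS1 have been studied in tumor cell migration. Many antisense RNAs are retained in the nucleus and are present at few copies per cell.

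The sequences shown first lie directly before the RefSeq starts of the 3 members that passed the FDR of 0.3, the threshold of the study. Those of KTN1-AS1 and STX18-AS1 are added as head-to-head pairs that did not pass. All were read from RefSeq windows on GRCh38.p14, 5′ to 3′ on the antisense gene's strand. In URB1-AS1, capitals mark a word of 14 bases that occurs 3 times. In the others, capitals mark GGGCGG (the GC box) and CCAAT on either strand, where neighboring GC boxes can overlap, and STX18-AS1 holds neither. By GENCODE models, the stretches of URB1-AS1 and KTN1-AS1 overlap an exon of the antisense gene itself, the stretch of TMEM147-AS1 overlaps an exon of TMEM147, and those of KTN1-AS1, STX18-AS1, TMEM147-AS1 and ADGRD1-AS1 overlap the namesake gene.
URB1-AS1, between its start and that of URB1 (chr21:32393013-32393132, + strand): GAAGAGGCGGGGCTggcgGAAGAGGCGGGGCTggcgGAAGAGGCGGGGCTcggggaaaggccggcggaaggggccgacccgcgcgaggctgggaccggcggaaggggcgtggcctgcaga
TMEM147-AS1, the 120 bases before its start (chr19:35546030-35546149, − strand): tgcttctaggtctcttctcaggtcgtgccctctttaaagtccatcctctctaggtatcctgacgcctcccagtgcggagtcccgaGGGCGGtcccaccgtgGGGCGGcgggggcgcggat
ADGRD1-AS1, the 120 bases before its start (chr12:130993977-130994096, − strand): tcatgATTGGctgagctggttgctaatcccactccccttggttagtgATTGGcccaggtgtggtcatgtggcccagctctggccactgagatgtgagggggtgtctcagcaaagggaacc
KTN1-AS1, between its start and that of KTN1 (chr14:55580093-55580206, − strand): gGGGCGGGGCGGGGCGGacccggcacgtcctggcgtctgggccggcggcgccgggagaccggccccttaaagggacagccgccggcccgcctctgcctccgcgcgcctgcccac
STX18-AS1, between its start and that of STX18 (chr4:4542049-4542130, + strand): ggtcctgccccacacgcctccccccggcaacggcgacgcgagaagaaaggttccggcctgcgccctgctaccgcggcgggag

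The stretch between URB1-AS1 and URB1 was 77.5% G or C and held 15 CpG dinucleotides in 120 bases. The one before ADGRD1-AS1 was 56.7% G or C and held 0 CpG dinucleotides and 2 CCAAT boxes. KTN1-AS1 and STX18-AS1 had 17 CpG dinucleotides in 114 bases and 11 in 82 bases. RefSeq windows ran from 250 bases before to 50 after the start. Of the 108 members with a window, 65 held GGGCGG on either strand (60.2%). This compares with 44.6% of all 27305 windows and 91 of 122 windows of the namesakes (74.6%). CCAAT was found in 35 member windows (32.4%, against 35.7% of all windows), and the TATA box motif TATAAA in 6 (5.56%, against 11.95%). The median number of CpG dinucleotides was 23 in member windows, 25.5 in namesake windows and 14 in all windows. The 27305 windows were not filtered by level, while the members averaged at least 1 CPM, so these shares are not matched for expression. Windows of a member and its namesake with nearby starts can also share bases. A match to these letters is a description of the window and not evidence of a bound factor.

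Few antisense genes passed the test between CML-exposed and control cells. Of the 142 members, 3 passed the FDR of 0.3. URB1-AS1 and ADGRD1-AS1 rose with CML, and TMEM147-AS1 fell. Groups were compared with limma on log2(CPM + 1), where the added 1 CPM makes fold changes of genes with few reads understated. The p-values were adjusted over all 17649 genes. The 3 calls are 2.11% of the members, where 0.895% of all genes and 1.02% of the genes averaging 1 CPM or more were called. In bulk RNA, more cells with an RNA and more of it per cell cannot be told apart. Exons of the namesake covered 0% of the exon bases of URB1-AS1, 1.89% of TMEM147-AS1 and 8.54% of ADGRD1-AS1. A share of bases is not a share of reads, since TMEM147 was at 33.6 CPM per kb of exons and TMEM147-AS1 at 1.42. How many reads of TMEM147-AS1 came from the overlap was not tested.

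URB1-AS1 lies on chromosome 21 from 32393133 to 32393960, and its namesake URB1, a factor in the assembly of the large ribosomal subunit, starts 121 bases away and runs in the other direction. URB1-AS1 had 1.49, 1.30, 1.51 and 1.71 CPM in control replicates 1 to 4 and 2.55, 2.41, 2.25 and 2.05 CPM in CML replicates 1 to 4. Every CML library was above every control library. The level was 1.503 ± 0.167 CPM in control and 2.32 ± 0.212 CPM in CML libraries (SD, n = 4 each). The log2 fold change was 0.41 ± 0.067 (SE), and its adjusted p in limma was 0.173, the lowest among the members. These values rest on 22 to 45 reads per library. URB1 itself had 75.6 ± 2.85 CPM in control and 77.3 ± 6.85 CPM in CML libraries (SD, n = 4 each), and its groups overlapped. The call was lost without control replicate 1, 2 or 3 or CML replicate 1, 2 or 3, where the adjusted p from limma lay between 0.305 and 0.440, and also when only genes averaging 1 CPM or more were tested (0.371).

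ADGRD1-AS1 lies on chromosome 12 from 130990626 to 130993976, inside ADGRD1, which encodes an adhesion G protein–coupled receptor. Its control libraries had 5.96, 5.97, 6.29 and 6.33 CPM, and its CML libraries had 7.82, 6.96, 7.37 and 7.40 CPM. Again every CML library was above every control library. The level rose from 6.14 ± 0.197 CPM to 7.39 ± 0.351 CPM (SD, n = 4 each), which is 0.23 ± 0.050 (SE) in log2 fold change, with an adjusted p of 0.286 in limma. ADGRD1 had 11.03 ± 0.541 CPM in control and 10.6 ± 1.49 CPM in CML libraries (SD, n = 4 each), with overlapping groups. Per kb of all annotated exons, however, ADGRD1-AS1 was at 5.30 CPM and ADGRD1 at 0.736 CPM.

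TMEM147-AS1 lies on chromosome 19 from 35540738 to 35546029 and overlaps the start of TMEM147, which encodes a membrane protein of the endoplasmic reticulum. Its control libraries had 7.45, 7.57, 8.04 and 7.29 CPM, and its CML libraries had 6.25, 6.58, 6.34 and 6.35 CPM. All CML libraries were below all control libraries. The level fell from 7.59 ± 0.322 CPM to 6.38 ± 0.141 CPM (SD, n = 4 each), which is −0.22 ± 0.046 (SE) in log2 fold change, with an adjusted p of 0.276 in limma. TMEM147 had 64.0 ± 1.53 CPM in control and 65.5 ± 3.50 CPM in CML libraries (SD, n = 4 each), and its groups overlapped. TMEM147-AS1 and ADGRD1-AS1 passed the FDR of 0.3 in only 1 of the 8 fits that left out a library, the one without control replicate 4. Without any one of the other 7 libraries their adjusted p from limma lay between 0.408 and 0.477. TMEM147-AS1 and ADGRD1-AS1 also missed the FDR of 0.3 when only genes averaging 1 CPM or more were tested (0.592 and 0.566), when libraries were centred on their median (0.499 and 0.569), under the replicate block (0.396 for both) and when both libraries numbered 4 were left out (0.331 and 0.354). With quantile normalization ADGRD1-AS1 missed it as well (0.360).

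The difference between each of these antisense genes and its namesake was also tested within libraries, as log2(CPM + 1) of the antisense gene minus that of the namesake. These pairs were chosen by the change of the antisense gene, and the namesakes had fitted log2 changes of 0.03 (URB1), 0.03 (TMEM147) and −0.06 (ADGRD1). Most of each difference is therefore given by the choice, and the exact p-values add no support to the calls. URB1-AS1 rose by 0.38 relative to URB1 (2-sided exact permutation test over 70 labellings, p = 0.0286, the smallest that 4 against 4 libraries allow). TMEM147-AS1 fell by 0.25 relative to TMEM147 on the log2 scale, with the same exact p. For ADGRD1-AS1 relative to ADGRD1 the value was 0.29 (exact p = 0.0857), and the groups of this difference overlapped.

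**Figure D1:**
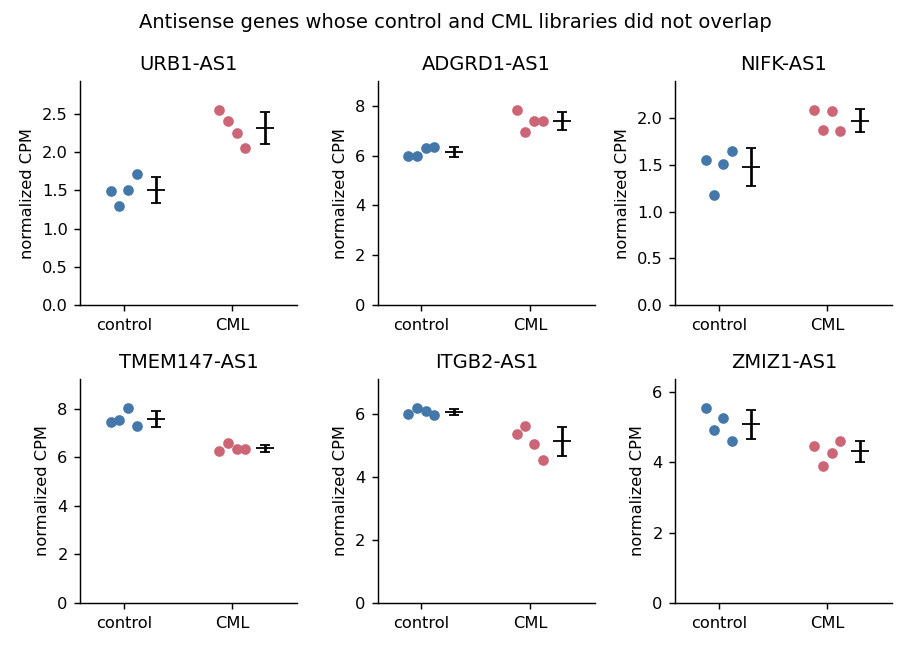
Normalized CPM of the 6 antisense genes whose groups did not overlap, with 1 point per library (4 control, 4 CML) and the mean ± SD beside the points. URB1-AS1, ADGRD1-AS1 and NIFK-AS1 (top) were higher in every CML library, and TMEM147-AS1, ITGB2-AS1 and ZMIZ1-AS1 (bottom) were lower.

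At an unadjusted p under 0.05 there were 11 members, 3 higher and 8 lower with CML. The 3 higher members are 2.11% of 142, where 5.65% of the genes averaging 1 CPM or more were higher at this p. The 8 lower members are 5.63%, where 2.64% of those genes were lower. Groups did not overlap in 3 members that were higher (2.11%, against 3.04% of genes averaging 1 CPM or more) and in 3 that were lower (2.11%, against 1.3%). The counts by direction are descriptions and were not tested over the list. At the unadjusted p they depended on the fit, from 6 higher and 7 lower with the replicate block to 3 higher and 12 lower without CML replicate 4.

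Besides the called members, NIFK-AS1, ITGB2-AS1 and ZMIZ1-AS1 had groups that did not overlap. NIFK encodes a nucleolar protein that binds Ki-67, and NIFK-AS1 meets its 3′ end. NIFK-AS1 had 1.55, 1.18, 1.51 and 1.65 CPM in control and 2.08, 1.87, 2.07 and 1.87 CPM in CML libraries, all of the latter higher. Its log2 fold change was 0.27 (0.41 with a pseudocount of 0.1 CPM), and its adjusted p from limma was 0.375. Without control replicate 4 it passed the FDR of 0.3. NIFK was at 54.6 ± 3.24 CPM and 55.1 ± 2.92 CPM (SD, n = 4 each).

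ITGB2-AS1 lies inside ITGB2, the β2 integrin subunit of leukocytes, which these cells had at 38.8 CPM. It had 6.02, 6.21, 6.11 and 5.98 CPM in control and 5.38, 5.62, 5.06 and 4.54 CPM in CML libraries, and its log2 fold change was −0.21 (adjusted p = 0.489 in limma). ZMIZ1-AS1 starts near the start of ZMIZ1, a transcriptional coactivator gene, and runs away from it. It had 5.55, 4.91, 5.26 and 4.62 CPM in control and 4.46, 3.91, 4.27 and 4.60 CPM in CML libraries. Here the lowest control and the highest CML library were nearly equal. The log2 fold change was −0.20 and the adjusted p from limma 0.554.

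The other 5 members at an unadjusted p under 0.05 were C1RL-AS1, TNRC6C-AS1, LBX2-AS1, SH3BP5-AS1 and GABPB1-AS1, all with negative fold changes and overlapping groups. C1RL-AS1, which overlaps the start of the complement protease gene C1RL, had the most negative fitted change of the members. It had 4.05, 3.02, 4.17 and 3.99 CPM in control and 2.66, 2.03, 2.01 and 3.24 CPM in CML libraries, where control replicate 2 was below CML replicate 4. The log2 fold change was −0.47 ± 0.139 (SE), with an adjusted p of 0.458 in limma. TNRC6C-AS1 had 20.3, 20.9, 21.0 and 21.5 CPM in control and 20.5, 18.4, 18.6 and 18.3 CPM in CML libraries, where CML replicate 1 lay within the control range. Its log2 fold change was −0.14 (adjusted p = 0.485 from limma), and without CML replicate 1 it passed the FDR of 0.3. The reads behind TNRC6C-AS1 were whole in only 1 of 8 libraries, so some of them may have been shared with another gene and its level is uncertain.

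LBX2-AS1 overlaps the start of the homeobox gene LBX2. It was at 4.68 ± 0.557 CPM in control and 3.87 ± 0.221 CPM in CML libraries (SD, n = 4 each), with a fitted log2 change of −0.22. Exons of LBX2 cover 25.6% of its exon bases, and its exons also overlap PCGF1. SH3BP5-AS1, antisense to a gene for an exchange factor of RAB11, has 36.0% of its exon bases covered by exons of SH3BP5. It was at 3.79 ± 0.551 CPM and 2.85 ± 0.497 CPM (SD, n = 4 each), with a fitted log2 change of −0.32. GABPB1-AS1 begins near the start of GABPB1, a subunit of an ETS family transcription factor. It was among the 10 most abundant members, at 27.5 ± 3.22 CPM and 22.9 ± 2.39 CPM (SD, n = 4 each), with a fitted log2 change of −0.25. The adjusted p of these 3 members from limma lay between 0.574 and 0.623.

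Over all members the fitted change was small. The median log2 fold change was −0.03, with quartiles of −0.10 and 0.04, and the median of the genes averaging 1 CPM or more was 0.01. The fitted change was negative in 91 members and positive in 51, so that 35.9% were fitted higher, against 58.8% of the genes averaging 1 CPM or more. The extremes were −0.47 for C1RL-AS1 and 0.41 for URB1-AS1. The median standard error of a member's log2 fold change was 0.11, larger than the median size of the change, 0.06.

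**Figure D2:**
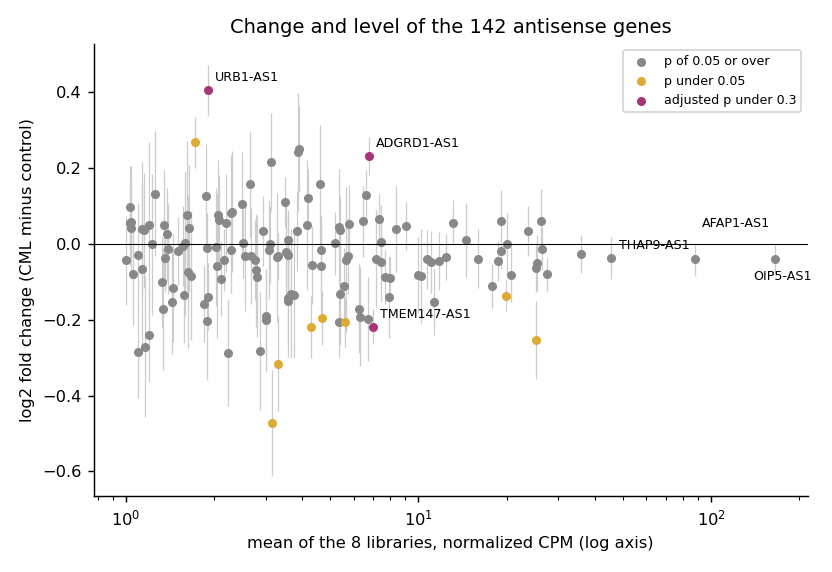
Log2 fold change (CML minus control) of the 142 antisense genes against their mean level in normalized CPM on a log axis, with 1 point per gene and standard errors as grey lines. Colors mark an unadjusted p under 0.05 and an adjusted p under 0.3. The fitted changes range from −0.47 to 0.41 and are narrower for the abundant genes at the right.

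Most members were present at low levels. The median of the mean CPM was 3.54, with 39 members under 2 CPM, 88 under 5 CPM and 12 over 20 CPM. Between libraries of the control group, the median coefficient of variation was 22.1% for members of 1 to 2 CPM, 14.7% for those of 2 to 5 CPM, 9.73% for those of 5 to 20 CPM and 6.13% for the 12 over 20 CPM. The values at 1 to 2 CPM rest on few reads, since 1 read was worth between 0.0535 and 0.0622 CPM. STX18-AS1 (1.00 CPM), SGMS1-AS1 (1.04 CPM) and EXOC3-AS1 (1.04 CPM) were the members just inside the rule, with 12 to 26 reads per library. They are named after an endoplasmic reticulum SNARE, a sphingomyelin synthase and an exocyst subunit. RAP2C-AS1 (0.993 CPM), ZNF436-AS1 (0.992 CPM) and TAPT1-AS1 (0.989 CPM) were just outside it.

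A few abundant antisense RNAs made up much of the total. The 10 most abundant members held 42.6% of the summed CPM of the 142, and 9 of these 10 had a negative fitted change. OIP5-AS1 alone held 14.4%. It had 160, 166, 166 and 179 CPM in control and 162, 164, 158 and 169 CPM in CML libraries. The groups overlapped, with means of 168 and 163 CPM. Its log2 fold change was −0.04 (adjusted p = 0.899 in limma). Its namesake OIP5, a centromere protein gene, had only 1.58 CPM. Exons of OIP5-AS1 also overlap those of NUSAP1 on the same strand, so its level may include reads of NUSAP1.

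AFAP1-AS1 held 7.64% of the sum. It had 85.7, 90.4, 92.3 and 88.7 CPM in control and 88.7, 91.4, 87.0 and 80.1 CPM in CML libraries, with overlapping groups and a log2 fold change of −0.04. AFAP1, which encodes an actin filament–associated protein, had 237 ± 5.04 CPM in control and 254 ± 6.27 CPM in CML libraries (SD, n = 4 each) without overlap, and its log2 fold change was 0.10 (adjusted p = 0.350 in limma). Exons of AFAP1 cover 42.2% of the exon bases of AFAP1-AS1, so reads of the pair may be mixed.

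The next most abundant members were THAP9-AS1, PAX8-AS1, PSMA3-AS1, NUTM2A-AS1, EPB41L4A-AS1, NNT-AS1, GABPB1-AS1 and UBA6-AS1. THAP9 derives from a transposase, PAX8 is a transcription factor of thyroid and kidney, PSMA3 is a proteasome subunit, NNT a mitochondrial transhydrogenase and UBA6 a ubiquitin-activating enzyme. Apart from GABPB1-AS1, their log2 fold changes lay between −0.08 for PSMA3-AS1 and 0.06 for EPB41L4A-AS1, and the groups overlapped in each. THAP9-AS1, at 46.2 ± 1.49 CPM and 45.1 ± 3.43 CPM (SD, n = 4 each), and NUTM2A-AS1, at 26.6 ± 1.61 CPM and 26.4 ± 1.58 CPM (SD, n = 4 each), had whole reads in only 2 of 8 libraries, and their levels are uncertain.

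Summed over the 142 members, the level was 1158, 1172, 1150 and 1206 CPM in control replicates 1 to 4 and 1119, 1140, 1132 and 1148 CPM in CML replicates 1 to 4. The highest CML library was just below the lowest control library. The mean was 1172 ± 24.7 CPM in control and 1135 ± 12.3 CPM in CML libraries (SD, n = 4 each), 3.16% lower with CML. Without OIP5-AS1 the sum was 3.22% lower and the groups still did not overlap. Without both OIP5-AS1 and AFAP1-AS1 it was 3.27% lower, and they overlapped. The summed CPM of the namesakes was 1.33% higher with CML, with overlapping groups, at 14139 ± 172 CPM and 14328 ± 86.9 CPM (SD, n = 4 each). A sum over chosen genes was given no test.

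**Figure D3:**
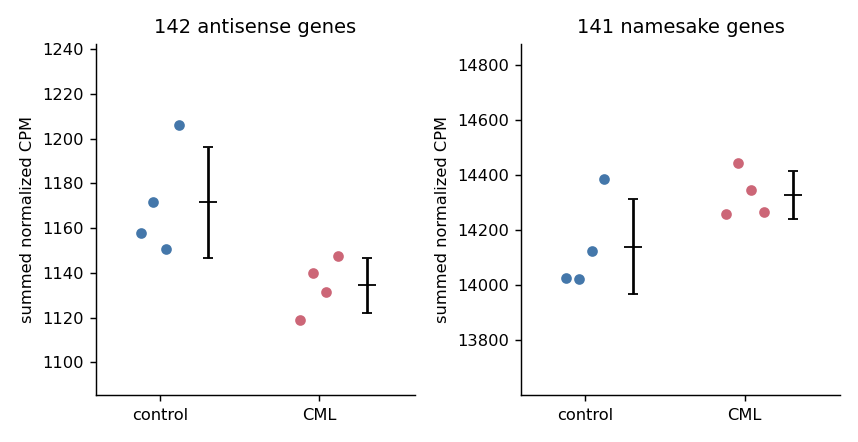
Summed normalized CPM of the 142 antisense genes (left) and of their 141 namesakes (right) in each library, with 1 point per library and the mean ± SD beside the points. Both axes start above 0. The antisense sum lies between 1150 and 1206 CPM in control and between 1119 and 1148 CPM in CML libraries, and the sums of the namesakes overlap.

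Among antisense RNAs with a described role, 13 of a list of 47 were members. None of the 13 had an unadjusted p under 0.05 in limma. Of the genes averaging 1 CPM or more, 5.65% were higher and 2.64% lower at this p. Their fitted log2 fold changes lay between −0.09 and 0.06 with a median of −0.04. They were positive in 3 (SBF2-AS1, KTN1-AS1 and TRAF3IP2-AS1) and negative in 10, where 64.1% of all members were fitted lower. ZEB1-AS1, antisense to the epithelial-mesenchymal transition factor ZEB1, was at 4.76 ± 0.474 CPM in control and 4.56 ± 0.793 CPM in CML libraries (SD, n = 4 each). BACE1-AS, described to stabilize the β-secretase mRNA in neurons, was at 10.3 ± 1.04 CPM and 9.70 ± 1.23 CPM (SD, n = 4 each). LOXL1-AS1, which overlaps the start of a gene for an enzyme that cross-links elastin, was at 8.27 ± 0.478 CPM and 7.71 ± 0.305 CPM (SD, n = 4 each). MAPKAPK5-AS1, named after a stress-activated kinase, was at 19.1 ± 0.980 CPM and 18.5 ± 1.09 CPM (SD, n = 4 each). MCM3AP-AS1, named after an mRNA export factor, was at 2.22 ± 0.440 CPM and 2.00 ± 0.162 CPM (SD, n = 4 each). TP73-AS1 was at 19.3 ± 0.747 CPM and 19.0 ± 1.11 CPM (SD, n = 4 each), while TP73, a p53 family gene, had 0.401 CPM.

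Other classes of noncoding genes, taken by their names and with a mean of at least 1 CPM, are given for comparison. The fitted change was negative in 64.1% of the antisense members, in 64.5% of 93 LINC genes, in 83.3% of 12 microRNA host genes, in 12 of 16 small nucleolar RNA host genes and in 47.6% of 21 divergent transcripts. None of the genes in the last 4 classes passed the FDR of 0.3 in limma, where 1.02% of genes averaging 1 CPM or more did. At an unadjusted p under 0.05, 1 LINC gene was higher and 4 were lower. At the same p, 1 microRNA host gene, 1 small nucleolar RNA host gene and 1 divergent transcript were lower (background 5.65% higher and 2.64% lower, as above). These shares were not compared by a test.

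The namesakes showed no call at the FDR of 0.3 in limma. Of all genes 0.895% were called, and of those averaging 1 CPM or more 1.02%. At an unadjusted p under 0.05 there were 11 of 141, 5 higher (3.55%, against 5.65% of genes averaging 1 CPM or more) and 6 lower (4.26%, against 2.64%), where 9 namesakes averaged under 1 CPM. In limma 1 namesake was called without the variance trend, 2 without both libraries numbered 4 and 6 without control replicate 4. The lowest adjusted p was 0.307, for TAF1A, a subunit of the RNA polymerase I factor SL1. TAF1A had 20.8 ± 0.400 CPM in control and 23.0 ± 0.851 CPM in CML libraries (SD, n = 4 each), without overlap. TAF1A-AS1 was at 1.76 ± 0.529 CPM and 1.98 ± 0.171 CPM (SD, n = 4 each). The median log2 fold change of the namesakes was 0.02.

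The fitted changes of the antisense genes and of their namesakes showed little relation to each other. The fitted directions were the same in 61 pairs and opposite in 81. Across the 142 pairs, Pearson's r of the log2 fold changes was 0.110 and Spearman's rho 0.0351, given as a description, since both values of a pair come from the same 8 libraries and most lie within their errors. Both genes had an unadjusted p under 0.05 in 2 pairs, C1RL with C1RL-AS1 and TNRC6C with TNRC6C-AS1, and all 4 fitted changes were negative. C1RL was at 7.11 ± 0.588 CPM in control and 6.03 ± 0.487 CPM in CML libraries (SD, n = 4 each). TNRC6C, a scaffold of microRNA-mediated silencing, was at 15.3 ± 0.432 CPM and 14.2 ± 0.640 CPM (SD, n = 4 each). NNT had values of the other direction from NNT-AS1, at 61.0 ± 2.04 CPM and 66.3 ± 1.53 CPM (SD, n = 4 each), with a fitted log2 change of 0.12, while NNT-AS1 was at −0.05.

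**Figure D4:**
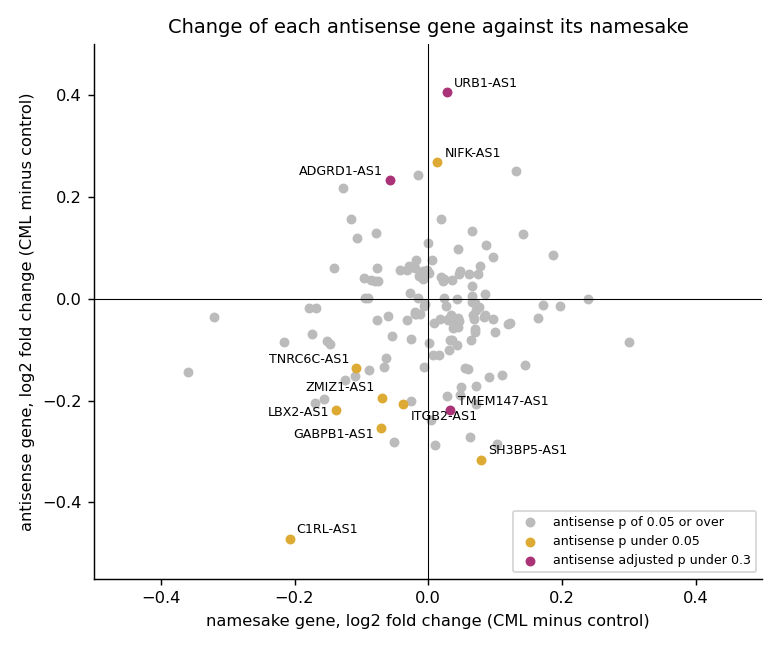
Log2 fold change (CML minus control) of each of the 142 antisense genes against that of its namesake, with 1 point per pair and colors for the p of the antisense gene. The points scatter around 0 on both axes, with 61 pairs in the quadrants of equal direction and 81 in the others (Spearman's rho = 0.0351).

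The arrangement of the pairs was taken from GENCODE release 44 in its GRCh37 version, used for distances and exon lengths only, because the labels name hg38. It covered 139 pairs. TNRC6C-AS1 was not matched, and for SVIL-AS1 and EMC3-AS1 it holds only a short pseudogene model. In 79 pairs the genes were head to head, 16 of them without overlap of the genes, in 33 they overlapped tail to tail, and in 27 one gene lay inside the other. The starts lay at most 1 kb apart in 54 pairs, all head to head. Of the 3 called members, URB1-AS1 was head to head and apart, TMEM147-AS1 head to head and overlapping, and ADGRD1-AS1 inside its namesake. The median log2 fold change of the antisense genes was −0.01 in the 16 pairs apart, −0.04 in the 63 that overlapped head to head, −0.01 where one gene was inside the other and −0.04 tail to tail. The direction was the same as that of the namesake in 6 of 16, 26 of 63, 10 of 27 and 17 of 33 pairs, respectively. Annotations differ in the outermost start. KTN1-AS1 and STX18-AS1 overlap their namesakes in GENCODE and are apart in RefSeq.

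Per kb of exons the antisense genes were mostly below their namesakes. The length took every exon base in any GENCODE transcript of the gene, whether or not that transcript is made in these cells. The ratios therefore depend on this annotation, and other exon lengths were not tried. In 106 of 139 pairs the level of the antisense gene was lower, by a median of 9.26-fold, and in 33 it was higher, by a median of 3.44-fold. Over all 139 pairs the median was 4.87-fold lower. THAP9-AS1 reached 10.4 CPM per kb, against 1.52 for THAP9. OIP5-AS1 reached 7.40 CPM per kb, against 1.31 for OIP5. TP73-AS1 was at 1.98 and TP73 at 0.0592 CPM per kb. At the other end, STX18-AS1 was at 0.0472 and STX18 at 8.51 CPM per kb. VIM-AS1, chosen after its values were seen because VIM marks these cells, was at 2.98 and VIM at 794 CPM per kb. Across the pairs, Spearman's rho of the levels per kb was 0.0653.

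**Figure D5:**
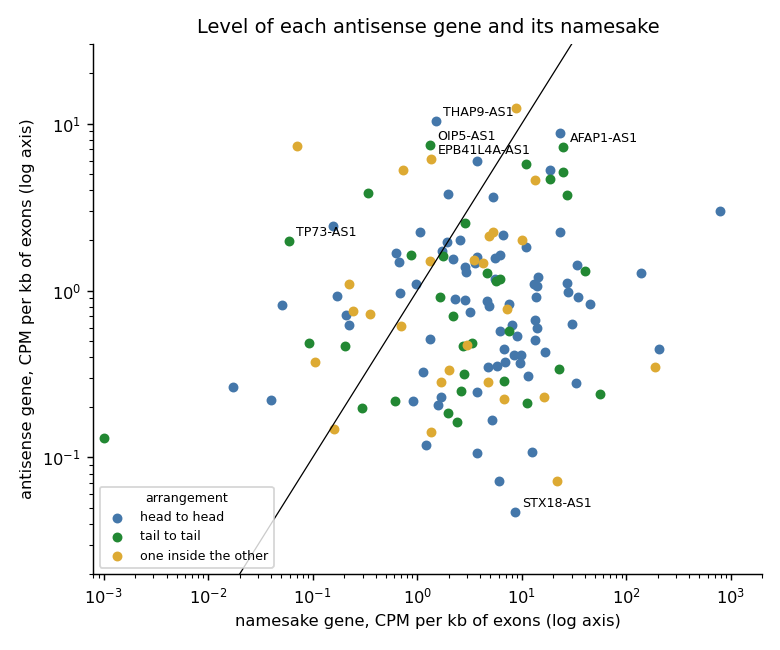
Level of each antisense gene against that of its namesake in CPM per kb of exons, on log axes, for 139 pairs, with 1 point per pair and colors for the arrangement. The black line marks equal levels. Below it lie 106 points and above it 33.

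Exons of the pair overlapped in 114 of 139 pairs, where the overlap covered a median of 7.96% of the antisense exon bases and up to 95.0%, and in 7 pairs more than 50%. Over all 139 pairs the median was 4.97%. The exons of 23 members also overlapped another gene on the opposite strand. Whether the counting of these libraries used the strand is not given in the sources used here, and without it reads in such overlaps cannot be assigned to one of the genes. Some members also overlap exons of a gene on the same strand, such as OIP5-AS1 (NUSAP1), PSMA3-AS1 (ARMH4) and THAP9-AS1 (SEC31A). There the strand does not separate the reads. All 8 libraries had whole reads (within 0.05 of a whole number) in 127 members (89.4%), against 81.6% of the genes averaging 1 CPM or more. Reads that are not whole may have been shared between genes, which was not tested. The 7 members with over 50% overlap, EML2-AS1, BACE1-AS, PITPNA-AS1, AGAP2-AS1, VASH1-AS1, ZNF337-AS1 and EPB41L4A-AS1, had log2 fold changes between −0.20 and 0.06. By GENCODE gene type, 137 members were lncRNA genes. NCBP2-AS2 is annotated as protein coding and TP73-AS1 as a unitary pseudogene.

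As facts of the whole table, the estimated reads per library lay between 16161804 and 18954732. VIM, CD44, EGFR, AXL and CAV1, markers of MDA-MB-231, were present at a mean of 152 to 4109 CPM, while SPARC lay at 0.114 to 0.414 CPM in 7 libraries and reached 6.03 CPM in CML replicate 3. PGR was at 0.0209, CDH1 at 0.654 and GATA3 at 4.62 CPM. Of markers of other cell types, PTPRC was at 0.377, VWF at 0.415, TFF1 at 0.633 and PECAM1 at 3.21 CPM, and ESR1, CD3E and CDH5 were not rows of the table. Both libraries with the number 4 had the highest antisense sum of their group.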

How the data were processed

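RNA-Seq values of 4 control and 4 CML libraries of MDA-MB-231 cells were analyzed. The authors deposited a table of normalized CPM values with 17681 rows. The submitters' processing notes name edgeR and hg38, while the aligner, the counting tool and its use of strand are not given for these libraries in the sources used here. For the tumors of the study, a stranded kit and Tophat on hg19, another build than hg38, are described. Both NextSeq and HiSeq are given for the same libraries. Dividing each column by its step gave estimated reads, of which 86.3% to 87.2% were whole, so no count test was run.

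Rows sharing a symbol (32 symbols) were averaged, and log2(CPM + 1) was compared with limma 3.58.1 in R 4.3.3 (variance trend, Benjamini-Hochberg adjustment over all genes, FDR of 0.3). The fit was tested on simulated data. A 2-sided exact permutation test was used for 3 pair differences. Alternatives were another pseudocount, a minimum mean, separate rows, centring, quantile normalization, no variance trend, a replicate block, left-out libraries, other level limits and members with whole reads only. RefSeq on GRCh38.p14 gave positions for 128 members and windows for 108. Plots used Python 3.11.15 and matplotlib 3.10.9.

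Members and lists were chosen with earlier results of these data known. Named members are those called, the 10 with the smallest p, the 10 most abundant, those at the limit of 1 CPM, and 13 from a list of described antisense RNAs. Outside this rule, VIM-AS1, NCBP2-AS2, SVIL-AS1, EMC3-AS1, TAF1A-AS1 and both antisense genes of PAXIP1, and of the 7 members with over 50% exon overlap all but BACE1-AS and EPB41L4A-AS1, were named after their values were seen.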

Additional observations from a re-analysis of the deposited data

Results flagged for a closer look

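In 3 of 64 groups of 4 libraries (32 named members, each in both conditions), 1 library stood apart from the others by more than Dixon's 95% critical value, where chance gives 3.2. C1RL-AS1 had 3.02 CPM in control replicate 2 and 3.99 to 4.17 CPM in the other control libraries. TNRC6C-AS1 had 20.5 CPM in CML replicate 1 and 18.3 to 18.6 CPM in the other CML libraries. KTN1-AS1, named after the kinesin-binding protein kinectin, had 9.95 CPM in CML replicate 2 and 8.86 to 9.02 CPM in the other CML libraries.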

How the results depend on the processing

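The number of members at the FDR of 0.3, 3 in limma on all genes, was 0 with a minimum mean of 1 CPM and 0 with the replicate block, 1 with libraries centred on their median and 1 without both libraries numbered 4, and between 0 and 4 with 1 library left out. Of the 16 fits, URB1-AS1 passed in 8, TMEM147-AS1 in 5 and ADGRD1-AS1 in 4, and their log2 fold changes kept their sign in all, at 0.37 to 0.59, −0.25 to −0.19 and 0.21 to 0.26. The namesakes, with 0 calls, had 1 with a pseudocount of 0.1 CPM, without the variance trend or with the block, 2 without both libraries numbered 4, and between 0 and 6 with 1 library left out. Over all genes, 158 calls became 73 with centring, 321 without both libraries numbered 4, and between 20 (without CML replicate 2) and 690 (without control replicate 4). Members with an unadjusted p under 0.05, 11, were 18 of 195 (6 higher, 12 lower) when the rule took 0.5 CPM and 13 (6 higher, 7 lower) with the block. The median log2 fold change stayed between −0.05 and −0.01. Of the 64 members and namesakes named by the rule, 16 changed sign in some fit. Deviations of same-numbered libraries from their group means correlated at 0.199, −0.0303, −0.0645 and 0.334 for replicates 1 to 4. Those of differently numbered libraries correlated between −0.304 and 0.113, so the values of replicates 4 and 1 were the highest. The main fit did not take the numbers to pair samples, but these values do not exclude pairing. Causes were not tested. Members of 1 to 2 CPM are limited by their reads.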
